A study of Mus musculus with 40 samples.

Results

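Macrophage identity genes are the genes by whose expression macrophages are usually recognised, and 9 of them were followed here in bone marrow-derived macrophages (BMDMs) of mice: the receptors Csf1r, Adgre1, Mertk and Mrc1, the transcription factors Spi1 and Maf, and the complement chains C1qa, C1qb and C1qc. They were chosen by name, and the 9 are part of a table of 43430 genes. All 9 passed the filter on low counts that left 11853 genes for testing. RNA-seq was performed on BMDMs of 5 WT and 5 NDI1 mice, and the cells of each mouse were split over no treatment, LPS at 100 ng ml−1 for 4 h, piericidin A at 500 nM, and piericidin A added 30 min ahead of LPS, which makes 40 libraries in 8 groups of 5. LPS is a bacterial outer membrane component that activates macrophages, and piericidin A blocks complex I of the mitochondrial respiratory chain. NDI1 is a yeast NADH dehydrogenase that piericidin A does not block. All mice carried Vav-iCre, which is active in blood-forming lineages. NDI1 mice carried in addition 1 copy of NDI1 behind a loxP-flanked stop at Rosa26, and WT mice were littermates with the Cre alone. The mice were labelled C57/Bl6, were male and female and aged 8 to 14 weeks, and the marrow was cultured with M-CSF, the ligand of the Csf1r product, so that all groups were grown under stimulation of 1 of the receptors described here.

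Macrophages depend on a small set of regulators and receptors. PU.1, the product of Spi1, is a transcription factor needed for the myeloid lineage, and it binds at Csf1r, which encodes the receptor for M-CSF that keeps macrophages alive. Adgre1 encodes F4/80, the surface protein by which mouse macrophages are stained. Maf encodes c-Maf, a factor linked to the resting, tissue-clearing state of macrophages and to Il10 expression. Mertk, a receptor tyrosine kinase, and Mrc1, the mannose receptor CD206, serve the uptake of dying cells and glycoproteins, and C1qa, C1qb and C1qc encode the chains that assemble into C1q, the recognition molecule of the classical complement pathway.

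In the coordinates of the deposited table, which was made on mm10, Spi1 lies on chromosome 2 from 91082390 to 91115756 and Maf on chromosome 8 from 115682942 to 115707794. The C1q genes lie side by side on the minus strand of chromosome 4 in the order C1qb, C1qc, C1qa, within 18675 bases from 136880129 to 136898803. The gaps between them are 3616 and 2851 bases, and no other annotated gene of GENCODE M21 overlaps any of them. As the levels of the C1q genes went together across mice, shown after the treatment results, the bases just before the neighbours C1qb and C1qc are shown. They are from RefSeq (GRCm38.p6), which held a window for 4 of the 9 genes (C1qb, C1qc, Mertk and Mrc1), are written 5′ to 3′ on the strand of the gene, and stop short of the transcribed part. Capitals mark GAGGAA, a core that PU.1 binds, and TGCTGA, a core that MAF factors bind, on either strand.
C1qb, chr4:136886201-136886450, minus strand: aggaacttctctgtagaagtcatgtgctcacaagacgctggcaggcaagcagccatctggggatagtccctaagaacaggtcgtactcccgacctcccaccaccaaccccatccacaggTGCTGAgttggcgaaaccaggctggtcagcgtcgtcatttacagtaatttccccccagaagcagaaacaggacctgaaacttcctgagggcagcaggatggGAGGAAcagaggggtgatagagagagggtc
C1qc, chr4:136893066-136893164, minus strand: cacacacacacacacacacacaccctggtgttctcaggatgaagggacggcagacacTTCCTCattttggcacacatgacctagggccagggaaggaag
The C1qb window of 250 bases held GAGGAA at 30 to 25 bases before its end and TGCTGA at 131 to 126 bases before it, both on the strand of the gene. The C1qc window of 99 bases held GAGGAA on the opposite strand, where it reads TTCCTC, at 42 to 37 bases before its end. GAGGAA was in 23.3% of all 32851 promoter windows at 250 bases and in 9.74% at 99 bases, and TGCTGA in 16.1% at 250 bases. The AP-1 motif TGANTCA and the C/EBP motif TTGCNNAA, searched on both strands, had no match in either window. In the 228 bases before Mrc1, GAGGAA matched 3 times on the opposite strand, and 21.4% of windows of that length held it. None of the 4 motifs was in the 250 bases before Mertk. A match is a run of letters and not a measured binding site.

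Totals per library were between 6950748 and 13552070 counts, and the 9 genes had between 428 and 53958 counts in each library. Values are CPM, counts scaled to a library of 1e+06 reads after TMM adjustment of library sizes, and for levels compared between genes CPM per kilobase of the exon length given in the table. Differences are log2 fold changes from edgeR's quasi-likelihood test of 1 model over all 40 libraries, and a gene was called at a Benjamini-Hochberg adjusted p under 0.05 over the 11853 genes. The 4 libraries of a mouse share its number and deviated together, so comparisons within mice also had a fit that blocks on the mouse. Without the block, 0.329% to 1.19% of genes passed an unadjusted p under 0.05 in comparisons where 0% were called. This is fewer than that threshold passes with no effect, so the fit without the block was conservative. A missing call in it does not show that an effect was absent. Csf1r, Adgre1 and the further markers Cd68 (801.9 to 1769.9 CPM) and Lyz2 (12943 to 31241 CPM), a macrophage glycoprotein and lysozyme, were present in all 40 libraries. Mice 496 (WT) and 503 (NDI1) stood apart from the other mice of their genotype on the second principal component, and values that rest on them are given with and without them where they moved. Csf1r, Maf and Mertk overlap a gene on the opposite strand, and the strand used in counting is not given in the sources used here, so reads of these partners cannot be told apart from theirs. In bulk RNA, fewer cells of a type and less RNA per cell cannot be told apart.

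Per length, C1qb was the most abundant of the 9 in untreated WT BMDMs and Mertk the least. The levels were 1406.5 ± 546 CPM per kb (SD, n = 5) for C1qb, 440.4 ± 185 for C1qc, 386 ± 68.0 for Csf1r, 283 ± 213 for C1qa, 235 ± 35.3 for Adgre1, 128 ± 16.9 for Spi1, 48.3 ± 8.67 for Maf, 27.7 ± 7.09 for Mrc1 and 18.6 ± 7.14 for Mertk. The 3 chains of C1q, which enter the protein in equal numbers, thus differed in RNA level per kb, and C1qb was 4.92- to 11.9-fold above C1qa in the 32 libraries of the mice other than 496 and 503.

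**Figure D1:**
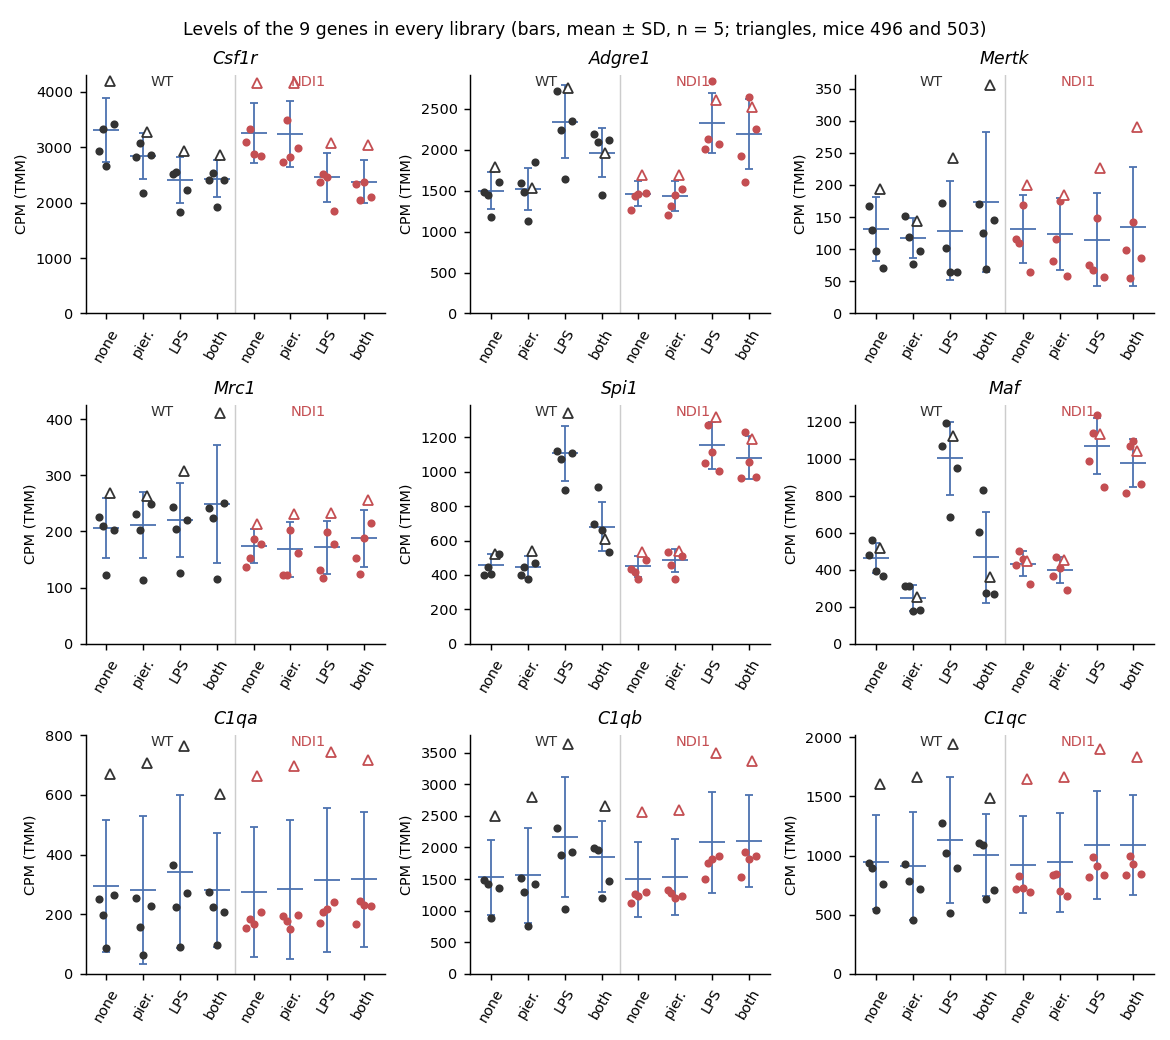
CPM (y axis, linear) of each of the 9 genes in every library, by treatment (x axis; none, piericidin A, LPS, both) and genotype (dark, WT; red, NDI1), with the mean and SD of the 5 mice in blue and mice 496 and 503 as triangles. Without piericidin A, the LPS-treated points of Spi1 and Maf lie above all untreated ones in both genotypes, and Maf with piericidin A alone lies below all untreated points in WT. The triangles lie above all other points of C1qa, C1qb and C1qc in all 8 groups.

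The first comparison asked what 4 h of LPS did to these genes. In WT BMDMs, Spi1, Maf and Adgre1 rose and Csf1r fell, so that 4 of 9 were called, against 62.5% of all tested genes (31.5% higher, 31% lower). The share among the 9 (3 higher, 1 lower) is not above this background. Their median log2 fold change was 0.26, and that of all tested genes −0.01. In NDI1 BMDMs the same 4 were called in the same directions, against 62.7% of tested genes (31.5% higher, 31.2% lower). The groups did not overlap for 2 of the 9 genes in WT and 3 in NDI1, which adds Adgre1, against 49.8% and 47.9% of tested genes.

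Spi1 was the most changed. Its 5 untreated WT libraries had 401, 403, 448, 522 and 524 CPM and those with LPS 895, 1075, 1108, 1119.6 and 1342 CPM, so the groups did not overlap. The log2 fold change was 1.27 ± 0.14 (SE, adjusted p = 3.36e-10, higher in 5 of 5 mice). In NDI1 BMDMs Spi1 went from 375, 417, 433, 488 and 533 CPM to 1006, 1053, 1115.5, 1274 and 1317.5 CPM, a log2 fold change of 1.36 ± 0.14 (adjusted p = 6.81e-11). All 10 mice thus had more Spi1 RNA after LPS.

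Maf followed the same course. WT libraries had 364, 391, 480.5, 518 and 559.8 CPM untreated and 687, 947, 1067, 1119.9 and 1192 CPM with LPS, again with no overlap (log2 fold change 1.12 ± 0.23, adjusted p = 5.63e-05). NDI1 libraries had 319.8, 426, 448, 459.5 and 500.2 CPM and 848, 989, 1131, 1138 and 1238 CPM (1.31 ± 0.23, adjusted p = 5.32e-06). The rise was seen in 5 of 5 mice of each genotype.

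The 2 lineage receptors moved in opposite directions. Adgre1 was between 1172 and 1783 CPM in untreated and between 1644 and 2751 CPM in LPS-treated WT BMDMs (log2 fold change 0.64 ± 0.15, adjusted p = 0.000401), and it rose by 0.67 ± 0.15 in NDI1 (adjusted p = 0.000242). Csf1r was between 2662 and 4194 CPM untreated and between 1828 and 2925 CPM with LPS, a change of −0.46 ± 0.15 (adjusted p = 0.0101), so that its RNA fell by 27.2%. Its groups overlapped, yet it was lower in 5 of 5 mice. In NDI1 the change was −0.41 ± 0.15 (adjusted p = 0.0206, lower in 5 of 5 mice), and without mouse 521 the adjusted p was 0.0615.

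The direction of Adgre1 depends on how the libraries are scaled, and those of Spi1, Maf and Csf1r did not turn. With library totals alone the median of all tested genes itself shifted by −0.78 with LPS in WT, Adgre1 was at −0.15 (adjusted p = 0.26), Maf at 0.32 (adjusted p = 0.153), Spi1 at 0.48 and Csf1r at −1.25. Taken relative to that median, the same fit put Spi1 at 1.27, Maf at 1.11, Adgre1 at 0.63 and Csf1r at −0.46.

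The C1q chains, Mertk and Mrc1 were not called with LPS in either genotype. In WT the log2 fold changes were 0.22 ± 0.60 for C1qa, 0.50 ± 0.32 for C1qb and 0.26 ± 0.35 for C1qc, and the 95% interval of C1qa ran from −0.99 to 1.44. Each of these standard errors was larger than that of any gene called among the 9. With the mouse as a block, 6 of 9 were called in each genotype (72% of tested genes in WT, 72.4% in NDI1), the added genes being C1qb (0.47 in WT, adjusted p = 1.24e-05, and 0.48 in NDI1, adjusted p = 7.01e-06) and C1qc (0.22, adjusted p = 0.0167, and 0.26, adjusted p = 0.00625). C1qa stayed above the threshold with the block (adjusted p = 0.0727 in WT and 0.0555 in NDI1), although it was higher in all 5 mice of each genotype. Mertk (block log2 fold change −0.14 in WT, adjusted p = 0.533) and Mrc1 (0.08, adjusted p = 0.405) were not called either. With library totals alone the C1q values were below 0, between −0.60 and −0.31 in WT, and relative to the median of all genes they were between 0.18 and 0.47.

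**Figure D2:**
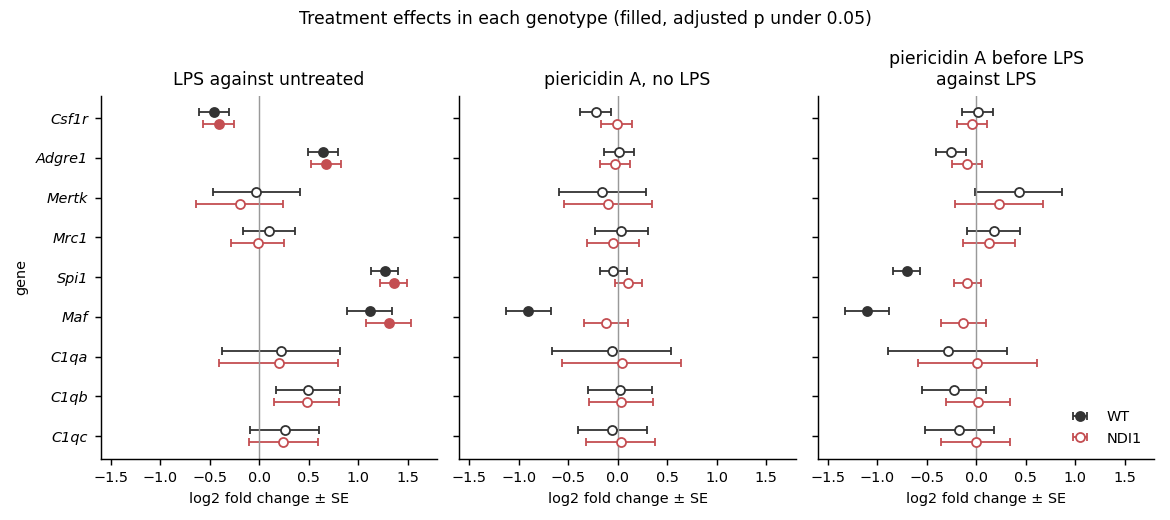
Log2 fold changes with their SE (x axis) of the 9 genes (y axis) for LPS, for piericidin A without LPS and for piericidin A before LPS, in WT (dark) and NDI1 (red), with filled points for an adjusted p under 0.05. With piericidin A the filled points are Maf in WT without LPS (−0.90) and Spi1 and Maf in WT with LPS (−0.70 and −1.10), and none is red.

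Piericidin A was then compared with no inhibitor in cells without LPS. In WT BMDMs Maf fell and 1 of 9 genes was called, against 14.8% of tested genes (7.79% higher, 7.05% lower). Maf was at 174, 181, 255, 314 and 314 CPM with piericidin A, below all 5 untreated libraries given above (groups did not overlap for 11.4% of tested genes). The log2 fold change was −0.90 ± 0.23 (adjusted p = 0.00588), so that its RNA fell by 46.5%. The log2 difference in single mice was between −1.17 and −0.62. Spi1, by contrast, stood at 376, 399, 445, 469 and 539 CPM (−0.04 ± 0.13, 95% interval −0.32 to 0.23, adjusted p = 0.861). With the mouse as a block, Csf1r was also called (−0.22, adjusted p = 0.0215, lower in 5 of 5 mice), which makes 2 of 9 against 34.2% of tested genes. Without mice 496 and 503 the block put Csf1r at −0.19 (adjusted p = 0.135).

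In NDI1 BMDMs piericidin A alone called 0 of 9 genes by edgeR and by DESeq2, with 0 of 9 at an unadjusted p under 0.05, and 0% of all tested genes were called (0.489% at an unadjusted p under 0.05). With the mouse as a block, 0 of 9 and 0% of tested genes were called as well. Maf was at 291, 366, 408, 454 and 469 CPM, which overlaps the untreated libraries (−0.12 ± 0.22, 95% interval −0.57 to 0.34). The difference between the genotypes in the effect on Maf was 0.79 ± 0.32 (adjusted p = 0.299), and with the mouse as a block 0.82 (adjusted p = 0.00224). It was the only 1 of 9 called with the block, against 8.96% of tested genes, and 0 of 9 were called without it by edgeR or by DESeq2 (1.27% of tested genes by edgeR). At an unadjusted p under 0.05 it was 1 of 9, against 11.2% of tested genes. Without mice 496 and 503 the block gave 0.76 (adjusted p = 0.0296).

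Piericidin A before LPS was compared with LPS alone, which asks how much of the LPS-induced state of these genes remained when complex I was blocked. In WT BMDMs Spi1 and Maf fell, 2 of 9 called against 16.7% of tested genes (7.81% higher, 8.92% lower), and no gene of the 9 was called higher. For none of the 9 were the groups without overlap (7.88% of tested genes were). Spi1 stood at 531, 611, 660.3, 695 and 911 CPM with both agents, against 895 to 1342 CPM with LPS alone. The log2 fold change was −0.70 ± 0.14 (adjusted p = 0.00048), so that its RNA fell by 38.5%. It was lower in 5 of 5 mice, by 1.14 on the log2 scale in mouse 496, 1.06 in mouse 520, 0.69 in mouse 449, 0.44 in mouse 453 and 0.24 in mouse 452. Only the highest library with both agents, that of mouse 452, overlapped the LPS group.

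Maf was at 267, 271, 361, 603 and 831 CPM with both agents, against 687 to 1192 CPM with LPS alone (−1.10 ± 0.23, adjusted p = 0.000895), so that its RNA fell by 53.5%. In single mice the difference was −1.83 in 520, −1.63 in 496, −1.34 in 453, −0.82 in 449 and −0.52 in 452. The same 2 mice, 496 and 520, had the deepest falls of both factors and mouse 452 the shallowest. For Spi1, both agents were not tested against untreated cells, and its mean with both was 682 ± 142 CPM (SD, n = 5) against 459.6 ± 60.7 CPM untreated, whereas the mean of Maf with both, 467 ± 245 CPM (SD, n = 5), lay beside its untreated mean of 463 ± 83.1 CPM (log2 difference 0.01, adjusted p = 0.968).

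In NDI1 BMDMs neither factor was called. Spi1 stood at 965, 971, 1056, 1192.5 and 1229 CPM with both agents (−0.09 ± 0.13, 95% interval −0.36 to 0.18) and Maf at 815, 865, 1042, 1069.9 and 1096 CPM (−0.13 ± 0.22, 95% interval −0.58 to 0.33). These ranges overlap those with LPS alone. By edgeR and by DESeq2 0 of 9 genes were called, 0 of 9 had an unadjusted p under 0.05, and 0% of tested genes were called (1.07% at an unadjusted p under 0.05). The fit with the mouse as a block also called 0 of 9 and 0% of tested genes.

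**Figure D3:**
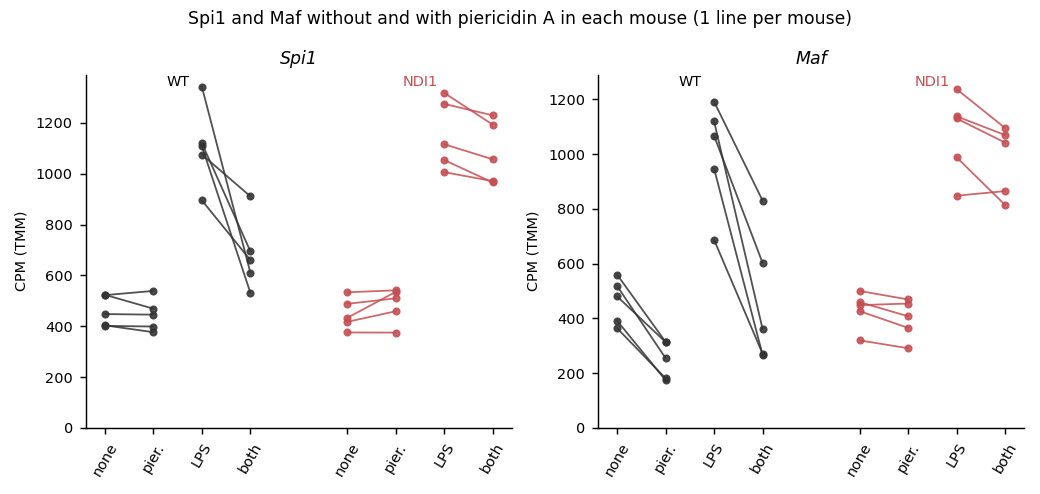
CPM (y axis) of Spi1 and Maf in each mouse, with lines that join the library without piericidin A to the library with it, for cells without LPS (none, pier.) and with LPS (LPS, both), in WT (dark) and NDI1 (red). With LPS, the lines of WT mice fall by 0.24 to 1.14 for Spi1 and by 0.52 to 1.83 for Maf on the log2 scale, and those of NDI1 mice lie between −0.14 and −0.05 for Spi1 and −0.28 and 0.03 for Maf. Without LPS, the WT lines lie between −0.16 and 0.05 for Spi1 and −1.17 and −0.62 for Maf, and the NDI1 lines between 0.00 and 0.31 for Spi1 and −0.22 and 0.02 for Maf.

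A direct test of whether piericidin A acted differently in the genotypes once LPS was present gave a difference of 0.61 ± 0.19 for Spi1 (adjusted p = 0.113) and by 0.97 ± 0.32 for Maf (adjusted p = 0.132), so 0 of 9 genes were called by edgeR, as by DESeq2 (0.979% of tested genes by edgeR), with 2 of 9 at an unadjusted p under 0.05 (14% of tested genes). With the mouse as a block both were called (0.60, adjusted p = 0.0151, and 1.08, adjusted p = 0.000224), 2 of 9 against 9.51% of tested genes. Without mice 496 and 503 the block kept the call of Maf (0.98, adjusted p = 0.00952) and not that of Spi1 (0.52, adjusted p = 0.132). Without mouse 452 both were called with no block (adjusted p = 0.0378 for Spi1 and 0.0202 for Maf). The effect of LPS alone did not give a called difference between genotypes in any of the 9 genes (0 of 9 by edgeR with and without the block and by DESeq2, 0 of 9 at an unadjusted p under 0.05, where 0.532% of tested genes passed, and 0% of tested genes called).

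The comparison of NDI1 with WT under the same treatment gave 0 of 9 genes in untreated cells and 0 of 9 with LPS, by edgeR and by DESeq2 and at an unadjusted p under 0.05 (0% of tested genes were called in each, and 0.329% and 1.19% passed the unadjusted p). With piericidin A alone Maf was higher in NDI1 by 0.68 ± 0.23 (adjusted p = 0.0543), 0 of 9 called against 7.8% of tested genes, with 1 of 9 at an unadjusted p under 0.05 (22.1% of tested genes). DESeq2 called it (adjusted p = 0.0279), and so did edgeR without mouse 449 (0.0491), 452 (0.0133) or 521 (0.0361). With both agents 2 of 9 were called, against 12% of tested genes (5.86% higher, 6.13% lower). Spi1 was higher in NDI1 by 0.67 ± 0.14 (adjusted p = 0.00113), and the lowest NDI1 library, at 965 CPM, lay above the highest WT library, at 911 CPM (5.37% of tested genes did not overlap). Maf was higher by 1.07 ± 0.23 (adjusted p = 0.00185), and its groups overlapped by 1 WT library, that of mouse 452. When only the libraries of these groups were fitted, the adjusted p of Maf was 0.0581.

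Whether piericidin A changed the size of the LPS response was tested next. In WT the LPS response of Spi1 with piericidin A minus that without it was −0.66 ± 0.19 (adjusted p = 0.0372), 1 of 9 called against 4.75% of tested genes, and with the block it was −0.64 (adjusted p = 0.00481; 17.4% of tested genes). That of Maf differed by −0.20 ± 0.32 (adjusted p = 0.804), with a 95% interval of −0.84 to 0.44. Maf was lower with piericidin A both without and with LPS. The call of Spi1 held in 10 of 19 alternatives. It was lost with no filter (adjusted p = 0.0861), with only the libraries compared (0.0862), with library totals (0.0999) and without both mice 496 and 503 (0.249). It also did not hold when mouse 496, 520, 449 or 447 was left out (adjusted p = 0.266, 0.152, 0.115 and 0.0512) or, with the block, when both 496 and 503 were (−0.51, adjusted p = 0.0819). In NDI1 0 of 9 were called by edgeR, with and without the block, and by DESeq2 (0% of tested genes), and 0 of 9 passed an unadjusted p under 0.05 (0.658% of tested genes).

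Of the other 7 genes none was called with piericidin A in the fit without the block. Before LPS, Csf1r in WT was at 0.01 ± 0.15 against LPS alone (95% interval −0.30 to 0.33), and Adgre1 at −0.25 ± 0.15 (adjusted p = 0.256). With the block Adgre1 was called (−0.25, adjusted p = 0.0225, lower in 5 of 5 mice; 34.5% of tested genes were called), and not when mice 496 and 503 were left out (−0.19, adjusted p = 0.164). Mertk had the highest of its 8 group means with both agents in WT, 173 ± 109 CPM (SD, n = 5), against 129 ± 77.1 with LPS alone, a difference of 0.43 ± 0.44 that was not called (adjusted p = 0.54, 0.0755 with the block). Mrc1 was at 0.18 ± 0.26 and the C1q chains were between −0.29 and −0.17, none of them called.

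LPS in the presence of piericidin A, against piericidin A alone, raised Adgre1 (0.37 ± 0.15, adjusted p = 0.0394), Spi1 (0.61 ± 0.14, adjusted p = 0.000224) and Maf (0.91 ± 0.23, adjusted p = 0.000832) in WT, 3 of 9 against 51.9% of tested genes (25.8% higher, 26.2% lower), and for none of the 9 were the groups without overlap (31.3% of tested genes were). The call of Adgre1 held in 10 of 19 alternatives. It was lost without mouse 449, 452, 496 or 521 (adjusted p between 0.0503 and 0.127), without both 496 and 503 (0.0655), with no filter (0.127), with at least 10 counts in every library (0.0583), with only the libraries compared (0.085) and with library totals, where it turned to −0.22. The calls of Spi1 and Maf each held in 18 of 19 alternatives. With library totals they were lost, Spi1 at 0.03 (adjusted p = 0.843) and Maf at 0.29 (adjusted p = 0.199). In NDI1 the 4 genes called with LPS alone were called (61.3% of tested genes), Csf1r at −0.44 ± 0.15 (adjusted p = 0.0126, and 0.0799 without mouse 460). With the block 6 of 9 were called in each genotype (62.5% of tested genes in WT, 71% in NDI1): Csf1r, Adgre1, Spi1, Maf, C1qb and C1qc.

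Markers of other cells were counted beside these results. With LPS in WT the 8 dendritic cell markers summed to between 9.93 and 21.5 CPM (median 10.2), against 3.79 to 8.09 CPM untreated (median 4.25). Of the 5 tested Xcr1, a chemokine receptor of dendritic cells, rose from 0.352 ± 0.102 to 5.91 ± 0.877 CPM (log2 fold change 4.03 ± 0.34, adjusted p = 9.98e-13), and Cd209a was at 0 in 23 of 40 libraries. The other tested markers were not called in WT. Flt3 was at −0.04 ± 0.93, Kit at −0.52 ± 0.48, Zbtb46 at 0.58 ± 0.55 and Siglech at 1.37 ± 0.98. In NDI1 the sum was 5.54 to 25.8 CPM with LPS and 4.35 to 10.6 CPM untreated, and 1 of 5 rose. No tested marker of the other lists was called with LPS in either genotype. The part of these cells in the rises of Spi1, Maf and Adgre1 was not tested. The 9 neutrophil markers (among them S100a8, S100a9 and Ngp) summed to between 54.3 and 1168 CPM in LPS-treated WT libraries (median 79.3) and between 111 and 3142 CPM with both agents (median 181), and 0 of the 8 tested were called. The log2 fold changes of the tested markers were between −0.01 (Mpo) and 1.92 (Retnlg), all but Mpo above 0. Their SEs were 1.12 to 1.53, too large for changes of this size to be called. The part of these cells in the falls of Spi1 and Maf was not tested. Without mice 496 and 503, whose sums were the highest, Spi1 fell by 0.58 (adjusted p = 0.0117) and Maf by 0.98 (adjusted p = 0.0218) on the log2 scale.

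The order of the 8 groups was read from their means. For Spi1 it was NDI1 with LPS, WT with LPS, NDI1 with both, WT with both, and then the 4 groups without LPS, and 2 of the 7 steps between neighbours were called (from NDI1 to WT with both agents, and from WT with both to NDI1 with piericidin A alone). For Maf the order was NDI1 with LPS, WT with LPS, NDI1 with both, WT with both, WT untreated, NDI1 untreated, NDI1 with piericidin A and WT with piericidin A, and 1 step was called, that from NDI1 to WT with both agents. For Adgre1 the 4 groups with LPS lay above the 4 without, and the step from WT with both to WT with piericidin A was called (adjusted p = 0.0394). For Csf1r the 4 groups without LPS lay above the 4 with it, yet no neighbours differed by the test. In all, 4 of 63 steps were called, and none for Csf1r, Mertk, Mrc1 or the C1q chains.

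The 9 genes differed in how far they varied with treatment and genotype and how far between mice. Of the sum of squares of log2 CPM over the 40 libraries, the 8 groups held 91.1% for Spi1, 83.1% for Maf, 65.1% for Adgre1 and 47.3% for Csf1r. They held 18.5% for C1qb, 14.9% for Mrc1, 5.41% for Mertk, 5.39% for C1qc and 2.07% for C1qa, and the median of all tested genes was 60.9%. Without mice 496 and 503 the groups held 92.6% for Spi1, 80.5% for Maf, 65.8% for Adgre1, 62.7% for Csf1r, 43.8% for C1qb, 17.5% for C1qc, 16.2% for Mrc1, 10.7% for Mertk and 7.97% for C1qa (median of all genes 64.5%), so the share of C1qb rests in part on these mice. Mice within a genotype held 96.0% for C1qa, 91.4% for C1qc, 79.3% for Mrc1, 79.2% for Mertk and 78.0% for C1qb, against 3.69% for Spi1, 13.1% for Maf and a median of 18.5% over all genes. In the 32 libraries of the mice other than 496 and 503 the share of mice was 86.3% for C1qa, 75.0% for C1qc, 78.4% for Mrc1, 69.7% for Mertk and 49.9% for C1qb (median of all genes 15.5%).

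**Figure D4:**
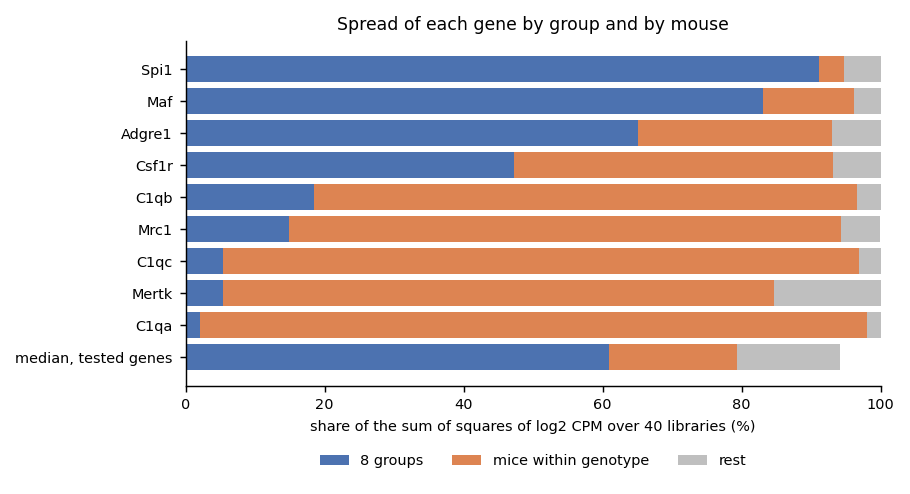
Share of the sum of squares of log2 CPM over 40 libraries (x axis, %) held by the 8 groups (blue), by mice within a genotype (orange) and by the rest (grey), for each of the 9 genes, with the median of each share over the 11853 tested genes in the last bar, which therefore does not sum to 100. Spi1 is blue for 91.1% of its bar and C1qa orange for 96.0%.

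C1qa was high in the same mice under every treatment. In mouse 503 it was between 663 and 743 CPM in the 4 libraries and in mouse 496 between 603 and 765 CPM, while the other 8 mice lay between 64.2 and 364 CPM. In each of the 8 groups the library of mouse 496 or 503 was above the other 4, by 3.01- to 4.02-fold over their mean for C1qa, 1.61- to 2.25-fold for C1qb and 1.68- to 2.30-fold for C1qc. Csf1r and Mrc1 were also highest in these mice in 8 of 8 groups (1.20- to 1.38-fold and 1.31- to 1.97-fold), Mertk in 7 of 8, Spi1 in 5 of 8, Adgre1 in 4 of 8 and Maf in 0 of 8. At the other end, mouse 453 (WT) had the lowest mean over its 4 libraries for 8 of the 9 genes, C1qa at 85.2 CPM among them. Mertk was the exception, with mouse 521 (NDI1) lowest at 66.5 CPM. Mice 496 and 503 were of different genotypes, so that each genotype had 1.

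The marker sums of other cells moved with these 2 mice. The 9 neutrophil markers had a median of 1488.5 CPM over the 4 libraries of mouse 496 and of 797 CPM in mouse 503, against 29.8 to 132 CPM in the other 8 mice. The 6 fibroblast markers had 64.1 and 12.4 CPM against 0.951 to 14.2 CPM, the 5 B cell markers 8.17 and 10.8 CPM against 0.719 to 1.90 CPM, the 8 dendritic cell markers 22.3 and 21.5 CPM against 4.94 to 10.6 CPM, and the 5 mast cell and basophil markers 7.34 and 7.03 CPM against 0.0890 to 0.453 CPM. Of these values only the fibroblast sum of mouse 503 lay within the range of the others. Ly6g, a defining neutrophil marker, was at 0 in 28 of 40 libraries. The 6 T and NK cell markers (8.54 and 11.6 CPM) lay within the range of the other mice (3.69 to 13.8 CPM), and Ncr1, a defining NK cell marker, was at 0 in all 40 libraries. Their part in the levels of C1q, Mertk and Mrc1 was not tested.

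**Figure D5:**
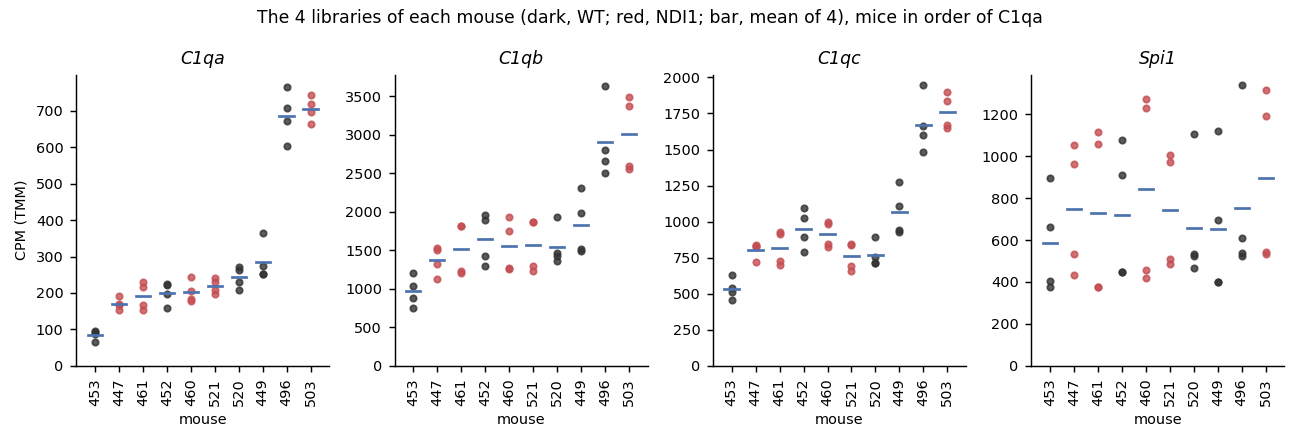
CPM (y axis) of C1qa, C1qb, C1qc and Spi1 in the 4 libraries of each mouse (x axis, mice in order of mean C1qa; dark, WT; red, NDI1), with the mean as a blue bar. The 4 C1qa points of a mouse lie close together and rise from 85.2 CPM on average in mouse 453 to 705 CPM in mouse 503, whereas the Spi1 points of each mouse spread over its treatments.

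The C1q chains kept to 1 another. After the group means were subtracted, Pearson's r over the 40 libraries was 0.99 between C1qa and C1qb, 0.96 between C1qa and C1qc and 0.98 between C1qb and C1qc. The 40 libraries share 10 mice, so these are descriptions, and r between C1qa and any tested gene had a 5th to 95th percentile of −0.66 to 0.72. The values were 0.96, 0.85 and 0.93 without mice 496 and 503. Csf1r went along with them (0.84 to 0.88, and 0.60 to 0.70 without the 2 mice), and so did Mrc1 (0.73 to 0.83, and 0.57 to 0.78 without them). Mertk had 0.68 to 0.74, and 0.32 to 0.50 without them. Its values with C1qa and C1qb lay below the 95th percentile over all tested genes, 0.72 for each chain. No such percentile is given for the values without the 2 mice. Adgre1 (0.62 to 0.70, and 0.58 to 0.76 without them) and Spi1 (0.60 to 0.64, and 0.43 to 0.49 without them) had values not far from those of Mertk. Maf had 0.33 to 0.51 with all mice and 0.42 to 0.76 without the 2, so the order of these genes rests on them. Spi1 and Maf, which both rose with LPS, had r = 0.42 in their deviations, and Spi1 and Mertk 0.11, or −0.31 without the 2 mice.

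Other genes of these pathways, from lists drawn up with earlier results known, changed in both directions with LPS in WT. Their counts stand against 31.5% of all tested genes called higher and 31% called lower, and their median log2 fold changes were between 0.00 and 0.49, against −0.01 for all tested genes. Of 11 tested genes of the CSF1 pathway 4 rose and 1 fell. Csf1, which encodes M-CSF itself, rose from 11.9 ± 4.71 to 249 ± 59.2 CPM (log2 fold change 4.39 ± 0.33, adjusted p = 3.21e-14), while Inpp5d, a phosphatase that restrains signalling from the receptor, fell by 2.84 ± 0.21 (adjusted p = 2.97e-14). Of 16 myeloid transcription factors 7 rose and 6 fell, the furthest being Ikzf1, a lymphoid and myeloid zinc finger factor (3.47 ± 0.21, adjusted p = 6.26e-17), and Cebpa, a partner of PU.1 in myeloid differentiation, which went from 269 ± 98.3 to 10.3 ± 3.29 CPM (−4.71 ± 0.38, adjusted p = 1.57e-13).

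Of 15 genes for the uptake of dying cells 4 rose, with Timd4, a phosphatidylserine receptor, at 3.31 ± 0.48 (adjusted p = 2.27e-07), and 3 fell, with the endocytic receptor Lrp1 at −1.19 ± 0.25 (adjusted p = 9.48e-05). Of 14 complement components and receptors 6 rose, Cfb, the factor B of the alternative pathway, by 3.76 ± 0.51 (adjusted p = 6.26e-08), and only C5ar2, a C5a receptor, was called lower (−1.58 ± 0.29, adjusted p = 1.59e-05). Of 13 lectin and scavenger receptors 3 rose and 2 fell, with Clec4e (Mincle, 3.18 ± 0.43, adjusted p = 5.96e-08) and the haemoglobin scavenger Cd163 (−1.69 ± 0.27, adjusted p = 1.02e-06) at the ends. Of 15 further surface and lysosome genes of macrophages 8 rose, Fcgr1, the high-affinity IgG receptor, by 2.45 ± 0.25 (adjusted p = 1.07e-10), and 2 fell, with the chemokine receptor Cx3cr1 at −2.39 ± 0.39 (adjusted p = 1.62e-06).

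With piericidin A before LPS in WT, where 7.81% of all tested genes were called higher and 8.92% lower, few genes of each list were called. The list medians were between −0.08 and 0.13 on the log2 scale, against −0.02 for all tested genes. In the CSF1 pathway 2 rose and 1 fell: Inpp5d rose by 1.14 ± 0.20 (adjusted p = 1.84e-04) and Pik3cd, a catalytic subunit of PI3 kinase, fell by 0.81 ± 0.21 (adjusted p = 0.00762). Of the myeloid transcription factors 3 rose and 2 fell, with Bhlhe41 at 1.83 ± 0.33 (adjusted p = 2.18e-04) and Tfec at −0.77 ± 0.24 (adjusted p = 0.0247). The other calls were Pros1, a bridging ligand of Mertk (−0.52 ± 0.14, adjusted p = 0.00904), the anaphylatoxin receptor C3ar1 (−0.36 ± 0.12, adjusted p = 0.0359) and Lgals3, which encodes galectin-3 (0.63 ± 0.21, adjusted p = 0.0373). No lectin or scavenger receptor of 13 was called. In NDI1 none of the genes of these 6 lists was called for the same comparison, where 0% of all tested genes were called.

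Without LPS, where piericidin A in WT called 7.79% of all tested genes higher and 7.05% lower, 4 of the 16 myeloid transcription factors were called higher, led by Bhlhe40 (2.61 ± 0.25, adjusted p = 2.69e-09), and none lower. Of 15 genes for the uptake of dying cells 3 were called lower and none higher, the lowest being Stab1, a receptor for phosphatidylserine (from 647.5 ± 275 to 282 ± 70.4 CPM, −1.20 ± 0.35, adjusted p = 0.0187). In the CSF1 pathway the adaptor Gab2 rose by 0.84 ± 0.16 (adjusted p = 2.91e-04) and Pik3cd fell by 0.97 ± 0.22 (adjusted p = 0.0021). Cd163 fell by 0.90 ± 0.25 (adjusted p = 0.0126) and C5ar2 by 0.78 ± 0.27 (adjusted p = 0.0489), while Clec4e rose by 1.17 ± 0.40 (adjusted p = 0.0441) and Lgals3 by 0.66 ± 0.21 (adjusted p = 0.0295). The list medians were between −0.25 and 0.22 on the log2 scale.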

How the data were processed

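RNA-seq of BMDMs of 5 WT and 5 NDI1 mice under 4 treatments was used. The authors deposited counts of reads per gene without normalization. Per the labels and the study's methods, reads were demultiplexed with bcl2fastq, trimmed with Trimmomatic, aligned to mm10 with STAR and counted in exons with HTSeq, and the annotation release and strand setting are not given in the sources used here. Reads with more than one place in the genome are usually left out by such counting, which lowers genes with near-identical copies. Groups and mouse numbers came from the labels, and 1 column of reads not assigned to a library was not used. Of 43430 genes 42462 matched a symbol.

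The count analysis used edgeR 4.0.16 under R 4.3.3. Low genes were removed with filterByExpr, the rest scaled by TMM and fitted with 1 mean per group over 40 libraries, and contrasts were tested with glmQLFTest (two-sided, Benjamini-Hochberg over 11853 genes). The SE is the size of the log2 fold change over the square root of F. Log2 CPM used a prior count of 2. Alternatives were DESeq2 1.42.0, RLE factors, library totals only, no filter, at least 10 counts in every library, only the libraries compared, the mouse as a block, each mouse left out, both outlying mice left out, and a log2 fold change of at least 1. Libraries of the same mouse correlated in their deviations from the group means in 60 pairs (mean r = 0.453, from 0.0995 to 0.769), against −0.107 in 240 pairs of different mice, so the numbers were taken as pairing. In 80 pairs of replicates chi-square over its degrees of freedom was at least 9.35, so none was a repeat of another. Counts without molecular identifiers are not independent molecules, and depth limits precision. The tests without the block were checked on simulated data in which libraries shared no mouse. That check does not cover libraries that share a mouse, or the fit with the block. The block without both outlying mice, and the alternatives for the order of the groups and for the most correlated genes, were added after the data were seen. One marker list is not reported here.

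Named genes are the 9 members, the largest called rise and fall of each pathway list (mean log2 CPM of at least 1) with LPS and with piericidin A with and without LPS in WT, and the 3 genes most correlated with each member. The members and lists were chosen with earlier results of these data known.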

Additional observations from a re-analysis of the deposited data

Results flagged for a closer look

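In 12 of the 72 groups of 5 values (9 genes in 8 groups) the highest library lay further from its neighbour than Dixon's test allows, and all 12 were libraries of mouse 503 (NDI1) for the C1q chains. About 5% of groups are flagged by chance, and the 12 share 1 mouse. C1qa was at 663 CPM untreated, 743 CPM with LPS, 696 CPM with piericidin A and 718 CPM with both, while the next highest NDI1 libraries were at 208, 241, 197 and 243 CPM. C1qb was at 2557.5, 3486, 2597 and 3368 CPM in the same order, with the next libraries between 1298 and 1935 CPM. C1qc was at 1648.5, 1899.5, 1668 and 1837 CPM, with the next libraries between 824 and 999 CPM. In WT no group was flagged, although C1qa of mouse 496 was between 603 and 765 CPM. Marker sums of other cells were higher in mouse 503 as given above, and their part was not tested.

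With the mouse as a block, 3 effects differed between the genotypes by the test of the difference. The effect of piericidin A without LPS on Maf was higher in NDI1 by 0.82 (adjusted p = 0.00224). With LPS that on Maf was higher by 1.08 (adjusted p = 2.24e-04) and that on Spi1 by 0.60 (adjusted p = 0.0151). These are 1 of 9 genes without LPS, against 8.96% of tested genes, and 2 of 9 with LPS, against 9.51%. With all mice and no block 0 of 9 were called in either test (1.27% and 0.979% of tested genes). Without both outlying mice the block called 1 of 9 in each (3.33% and 2.46% of tested genes). The call of Maf was kept in both, and that of Spi1 was lost.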

How the results depend on the processing

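TMM and RLE scaling gave the same calls among the 9 genes in every comparison, and library totals alone did not. With library totals, Adgre1 turned to −0.15 (LPS in WT), −0.11 (LPS in NDI1), −0.22 and −0.15 (LPS with piericidin A in WT and NDI1), C1qb to −0.31, −0.30, −0.34 and −0.29 and C1qc to −0.56, −0.54, −0.45 and −0.55 in the same order. The median of all genes shifted by −0.78, −0.77, −0.62 and −0.77 there, so these turns follow from the scaling. Library totals also gave 2 calls for piericidin A without LPS in WT (18.7% of tested genes), 1 for LPS with piericidin A in WT (75.9%), 1 for NDI1 against WT with piericidin A (11.7%), 0 for the change of the LPS effect in WT (5.89%) and 10 called steps in the order of groups.

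With the mouse as a block the number called was 2 for piericidin A without LPS in WT (34.2% of tested genes), 6 for LPS with piericidin A in WT (62.5%), 1 for the genotype difference of the piericidin A effect without LPS (8.96%) and 2 with LPS (9.51%). Without mice 496 and 503 the block gave 7 for LPS with piericidin A in WT (59.5% of tested genes) and in NDI1 (68%), 1 for each of these 2 genotype differences (3.33% and 2.46%) and 0 for the change of the LPS effect in WT (8.21%). That change also gave 0 without these mice and without the block (1.58%). With all mice it gave 0 with no filter (1.57%) and with only the libraries compared (2.96%). A further threshold of 1 on the log2 fold change left 2 for LPS in WT and in NDI1 (32.4% and 32.3% of tested genes), 0 and 1 for piericidin A without and with LPS in WT (3.21% and 3.7%), 0 and 2 for LPS with piericidin A in WT and NDI1 (24.6% and 31.4%), 1 for NDI1 against WT with both agents (3%) and 0 for the change of the LPS effect in WT (2.6%). NDI1 against WT with piericidin A gave 1 with at least 10 counts in every library (9.89%) and with DESeq2 (10.5%), and with both agents 1 when only the libraries compared were fitted (3.2%). Leaving out 1 mouse at a time gave 0 to 1 for NDI1 against WT with piericidin A (6.52% to 9.44% of tested genes where it was 1) and 0 to 2 for the genotype difference with LPS (2.15% where it was 2). For the change of the LPS effect in WT it gave 0 to 1 (1.38% to 4.33% where it was 0).

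Apart from the shifts named here the cause was not tested. Of the alternatives for single genes and correlations, 680 left the value on its side of the threshold or close to it, 32 gained a call, 23 lost one, 22 correlations moved by 0.1 or more (that of Spi1 and Mertk changed sign), and 12 fold changes, the library-total ones above, changed sign. The calls of Spi1 and Maf with piericidin A and LPS in WT, and that of Maf without LPS, held under every alternative run but the further threshold of 1, which only Maf with LPS passed. Groups of 5 mice and the spread between mice limit what can be said of C1qa and Mertk, whose 95% intervals with LPS in WT run from −0.99 to 1.44 and from −0.92 to 0.87 on the log2 scale in the fit without the block.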

Other observations

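The ratios between the C1q chains were lower in mice 496 and 503 than in the other mice. Per base of exon, C1qb was 3.56- to 4.54-fold above C1qa in the 8 libraries of mice 496 and 503 (median 4.00) and 4.92- to 11.9-fold in the 32 libraries of the other mice (median 7.23). These 32 libraries are those of 8 mice. Among them the ratio was 4.92 to 6.79 in mouse 520 and 9.50 to 11.9 in mouse 453, where C1qa was lowest. In mice 496 and 503 the excess of C1qa was larger than that of C1qb, as given above. The lower ratios restate those levels, as C1qa is the denominator. C1qc over C1qa was 1.14 to 1.24 (median 1.20) in the 2 mice and 1.39 to 3.42 (median 2.11) in the others. The means over groups lay between 6.05 and 7.63 for C1qb and between 1.87 and 2.07 for C1qc.

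The genes whose log2 CPM was most like that of each member over the 40 libraries, among 9950 genes whose mean log2 CPM reached 1, are given here as a description. For Spi1 they were Slc31a2, Pgap2 and Rhog (r = 0.97 each) and for Maf Pik3cd, Dpysl2 and Zbtb7a (0.93 to 0.94). For Adgre1 they were Skil, BE692007 and March1 (0.94 each) and for Csf1r Ifngr1, Sirpa and Adam19 (0.88 to 0.90). C1qa was nearest to C1qc, Aif1 and Apoc2 (0.95 each), C1qb to C1qc, Unc93b1 and Cfp (0.94 to 0.96) and C1qc to C1qb, C1qa and Trf (0.95 to 0.96). Mertk was nearest to Prex1, Sipa1l2 and Snx9 (0.84 to 0.88) and Mrc1 to Serinc3, Fcrls and Adgre4 (0.83 to 0.88). Over the 32 libraries without mice 496 and 503 these r values were 0.97 for the genes of Spi1, 0.93 to 0.94 for those of Maf, 0.92 to 0.95 for Adgre1, 0.83 to 0.90 for Csf1r, 0.85 to 0.88 for C1qa, 0.87 to 0.90 for C1qb, 0.83 to 0.90 for C1qc, 0.73 to 0.81 for Mertk and 0.79 to 0.87 for Mrc1. The libraries share mice and treatments.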
